A study of Mus musculus with 3 samples.

Results

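Immediate early genes and heat shock genes are 2 sets of rapidly inducible genes. Of the 31053 genes counted, 37 of these were followed through classes of cells sorted from the mouse pancreas in 3 single-cell libraries. The 27 immediate early members were taken by symbol and comprise 6 subunits of the transcription factor AP-1 (Fos, Fosb, Fosl2, Jun, Junb and Jund) with the related factor Atf3, the transcription factors Egr1, Egr2, Egr3, Nr4a1, Nr4a2, Nr4a3, Klf2, Klf4 and Klf6, the response genes Ier2, Ier3 and Ier5, and 8 genes that restrain signalling or remove mRNA (Dusp1, Dusp2, Dusp5, Zfp36, Zfp36l1, Btg2, Ppp1r15a and Rgs1). The 10 heat shock members are Hspa1a, Hspa1b, Hspa8, Hsph1, Hsp90aa1, Hsp90ab1, Dnajb1, Dnaja1, Hspd1 and Hspe1. All 37 had UMIs in each library, and the rule itself uses no measured value. The 2 sets are described apart.

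The libraries held live CD45+ (leukocyte surface antigen) cells sorted from digested mouse pancreas and read with 10x Genomics 3′ chemistry. One library came from mice given PBS, and the others from mice given WGP, a particulate yeast β-glucan injected into the peritoneum, 3 days or 7 days before they were killed. The study's methods name wild-type C57BL/6J mice of both sexes, 6 to 8 weeks old, while the labels give no strain, age or sex and not how many mice entered a library. With 1 library per group there is no replicate check, so no p-value is given and every interval is a 95% interval that covers counting error only.

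Immediate early genes are transcribed within minutes of a stimulus, without new protein synthesis, from promoters that are already poised. Many of their products are transcription factors, and others, such as the phosphatase Dusp1 and the mRNA-destabilizing protein Zfp36, switch the same response off again. Heat shock genes encode chaperones that fold or rescue proteins and are driven by heat shock factor 1 when misfolded protein accumulates. Both programmes are also known to start in cells during enzymatic digestion of a tissue, and in these libraries RNA made in the animal and RNA made during preparation cannot be told apart.

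After barcodes with fewer than 1000 UMIs or more than 30% mitochondrial UMIs were removed, 5249 PBS, 4879 3-day and 4174 7-day cells remained, with medians of 5755, 5754 and 8077 UMIs per cell. In spite of the CD45+ sort, 4 to 123 cells per library were erythroid, fibroblast, acinar or endothelial by markers in each of these classes. PBS shared 9 kept barcodes with 3-day WGP and 1 with 7-day WGP, and the WGP libraries shared 5. Cells were clustered without the 37 members into 39 clusters, and each class is a group of clusters that resembles the named cell type by marker genes. Other clusters stayed unnamed, with 508 PBS, 726 3-day and 499 7-day cells, and enter no class below. Levels are UMIs of a gene or set per 1000000 UMIs of the class (CPM), a 3′ count in which transcript length does not enter. A member is called higher or lower where its CPM plus 10 differed at least 2-fold from PBS, over 10 classes with 30 or more cells in every library.

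Over all kept cells the immediate early set amounted to 7198, 8169.9 and 9841 CPM in PBS, 3-day WGP and 7-day WGP, and the heat shock set to 6534, 4329 and 6632 CPM. The immediate early sum was thus highest at 7 days, whereas the heat shock sum was lowest at 3 days. Fos, Klf2, Jun, Junb and Jund led the first set by mean level, and Hspa8 and Hsp90ab1, the abundant constitutive members, led the second. Cell classes entered the libraries in different proportions, and the remaining values are therefore given within classes.

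The level of the immediate early genes differed widely between classes. The ILC2 class (group 2 innate lymphoid cells) held the largest immediate early sum in PBS, at 21292 CPM (21046 to 21539), and 29564 CPM (29203 to 29927) at 3 days. Its 12 cells at 7 days gave 24067 CPM and were not compared. Junb alone reached 3721 and 6106 CPM in ILC2 of PBS and 3-day WGP, and Fos 2209 and 2805 CPM. The log2 ratio of the ILC2 sum at 3 days was 0.47 (0.45 to 0.50). ILC2 with Xist and ILC2 with Y chromosome transcripts numbered 82 and 100 in PBS and 3 and 123 at 3 days. Among cells with Y chromosome transcripts the highest 3-day ratio in the 8 classes compared, ILC2 included, was 0.20. The part of this changed mix in the ILC2 ratio was not tested. Neutrophils came next with 13333, 28025 and 27943 CPM in PBS, 3-day and 7-day WGP, and erythroid cells were lowest with 157, 209 and 200.3 CPM. B cells (6693, 6065 and 5869 CPM), T cells (6536, 5496 and 6316 CPM) and NK cells (6502, 7230.5 and 6619.5 CPM) lay close together in every library.

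**Figure D1:**
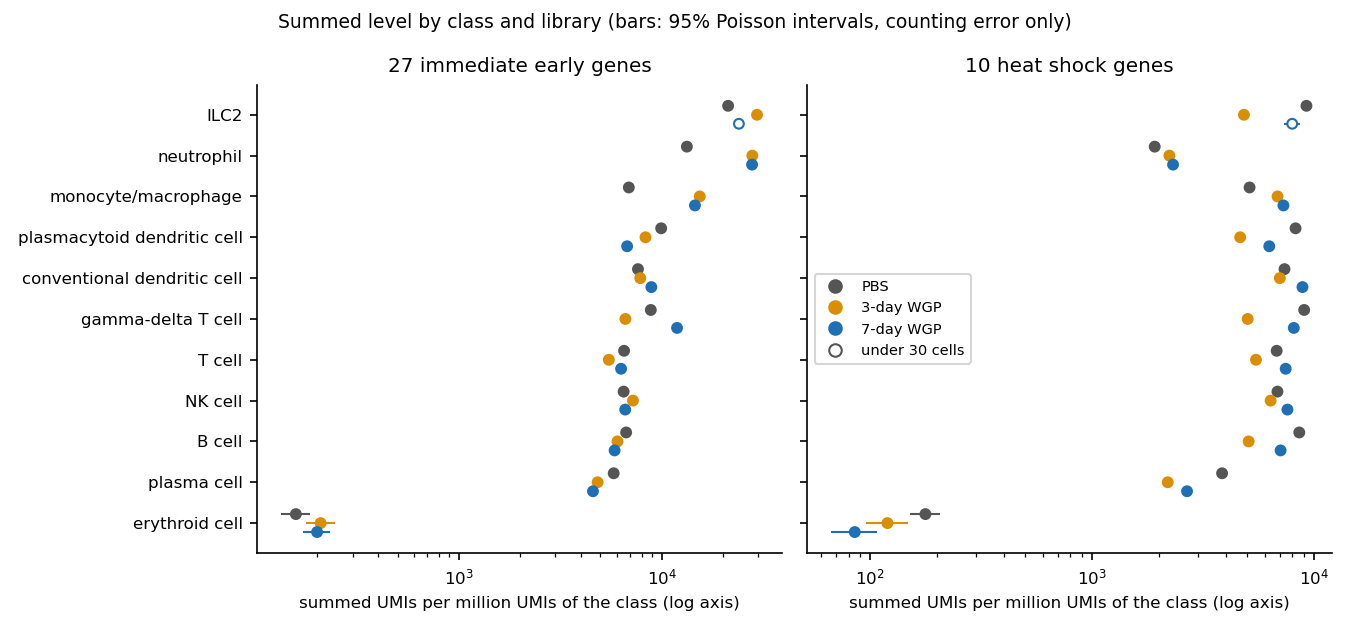
Summed CPM of the 27 immediate early genes (left) and the 10 heat shock genes (right) in 11 cell classes, on log axes, with 1 point per library and 95% Poisson intervals that cover counting error only. The immediate early points of PBS lie apart from both WGP points in monocytes/macrophages (6897, 15429.5 and 14611 CPM) and neutrophils (13333, 28025 and 27943 CPM), and the heat shock point of 3-day WGP is the lowest of its class in B cells (8589, 5079 and 7075 CPM), T cells (6792, 5481 and 7458 CPM) and gamma-delta T cells (9034, 5028 and 8112 CPM).

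Of the 270 pairs of an immediate early member and a class, 38 were called higher and 8 lower at 3 days, where 2.03% and 1.18% of all gene and class pairs were called. At 7 days 40 were higher and 17 lower, beside 3.29% and 2.2%. Most of the higher pairs belonged to monocytes/macrophages and neutrophils, with 31 of 38 at 3 days and 29 of 40 at 7 days. The summed level had a median log2 ratio to PBS over the 10 classes of -0.052 at 3 days and 0.12 at 7 days, with 5 and 6 classes above 0. Cells that held Y chromosome transcripts and cells that held Xist, a split described with the heat shock genes, gave different tallies. Within Y cells the sum was lower than PBS in 7 of 8 classes at 3 days (median log2 ratio -0.41) and in 6 of 7 at 7 days (-0.26). Within Xist cells it was higher in 3 of 4 classes at 3 days (0.21) and in 6 of 6 at 7 days (0.27).

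In monocytes/macrophages the immediate early sum was 6897 CPM (6846 to 6949) in PBS, 15429.5 CPM (15315 to 15545) at 3 days and 14611 CPM (14546 to 14676) at 7 days. The levels were 2.24-fold and 2.12-fold that of PBS, and the log2 ratios were 1.16 (1.15 to 1.18) and 1.08 (1.07 to 1.10). At 3 days 12 of the 27 members were called higher and 0 lower, against 2.15% and 2.01% of the genes tested in this class. At 7 days 11 were higher and 0 lower, against 4.13% and 5.97%. On the scale of CPM plus 10 the median member had a log2 ratio of 0.79 at both times, where the median over all genes was -0.0043 and -0.11.

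Among the AP-1 subunits of this class, Fos stood at 762, 2829 and 2489.9 CPM in PBS, 3-day and 7-day WGP, with log2 ratios of 1.89 (1.85 to 1.93) and 1.71 (1.67 to 1.75). Junb, a partner of Fos, stood at 436, 1241 and 1267 CPM and was called higher at both times. Jund, a subunit present in most resting cells, stood at 525, 575 and 578 CPM and was not called at either time. Jun was intermediate at 703, 999 and 946 CPM, and Fosl2 was called at both times at 46.6, 122 and 124 CPM. Atf3, a stress-induced factor that restrains inflammatory transcription in macrophages, stood at 162, 508 and 596 CPM, and the log2 ratios to PBS were 1.65 (1.55 to 1.74) and 1.88 (1.80 to 1.95). Fos, Junb, Fosl2 and Atf3 were thus called higher in this group, and Jun, Jund and Fosb (201, 295 and 296 CPM) were not.

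Several feedback genes of monocytes/macrophages were higher as well. Dusp1, which dephosphorylates and inactivates MAP kinases, stood at 362, 1599 and 1427 CPM, and its log2 ratios were 2.14 (2.09 to 2.20) and 1.98 (1.93 to 2.03). Zfp36, or tristetraprolin, which targets cytokine mRNAs such as that of TNF for decay, stood at 387, 1183 and 1215 CPM. Btg2, an antiproliferative gene that promotes deadenylation, stood at 412, 917 and 1046 CPM. All 3 were called higher across the class at both times, while Zfp36l1, a paralog of Zfp36, stood at 342, 472 and 358 CPM and Rgs1, a regulator of G-protein signalling, at 203, 164 and 210.1 CPM, and neither was called. Ier3, an early gene linked to cell survival, had the largest ratios of the set in this class, from 67.9 CPM in PBS to 507 and 462 CPM, and the log2 ratios to PBS were 2.90 (2.78 to 3.03) and 2.77 (2.65 to 2.88).

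The nuclear receptors and zinc finger factors were less uniform. Nr4a1, an orphan nuclear receptor induced by activation, stood at 93.1, 315 and 214 CPM and was called at both times. Nr4a2, of the same family, stood at 13.4, 71.6 and 75.2 CPM and was called at both times as well. Klf2, a quiescence factor, stood at 547, 1119 and 1029 CPM and passed the 2-fold limit at 3 days and not at 7 days. Egr1 stood at 224, 319 and 197 CPM and Klf6 at 639, 800.5 and 841 CPM, and neither was called. Ier2 and Ier5, nuclear proteins of the same early response, stood at 192, 418 and 310.1 CPM and 218, 385 and 384 CPM, and Ier2 was called at 3 days alone. Egr1 at 7 days was thus below PBS in a class whose Fos was over 3 times as high.

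**Figure D2:**
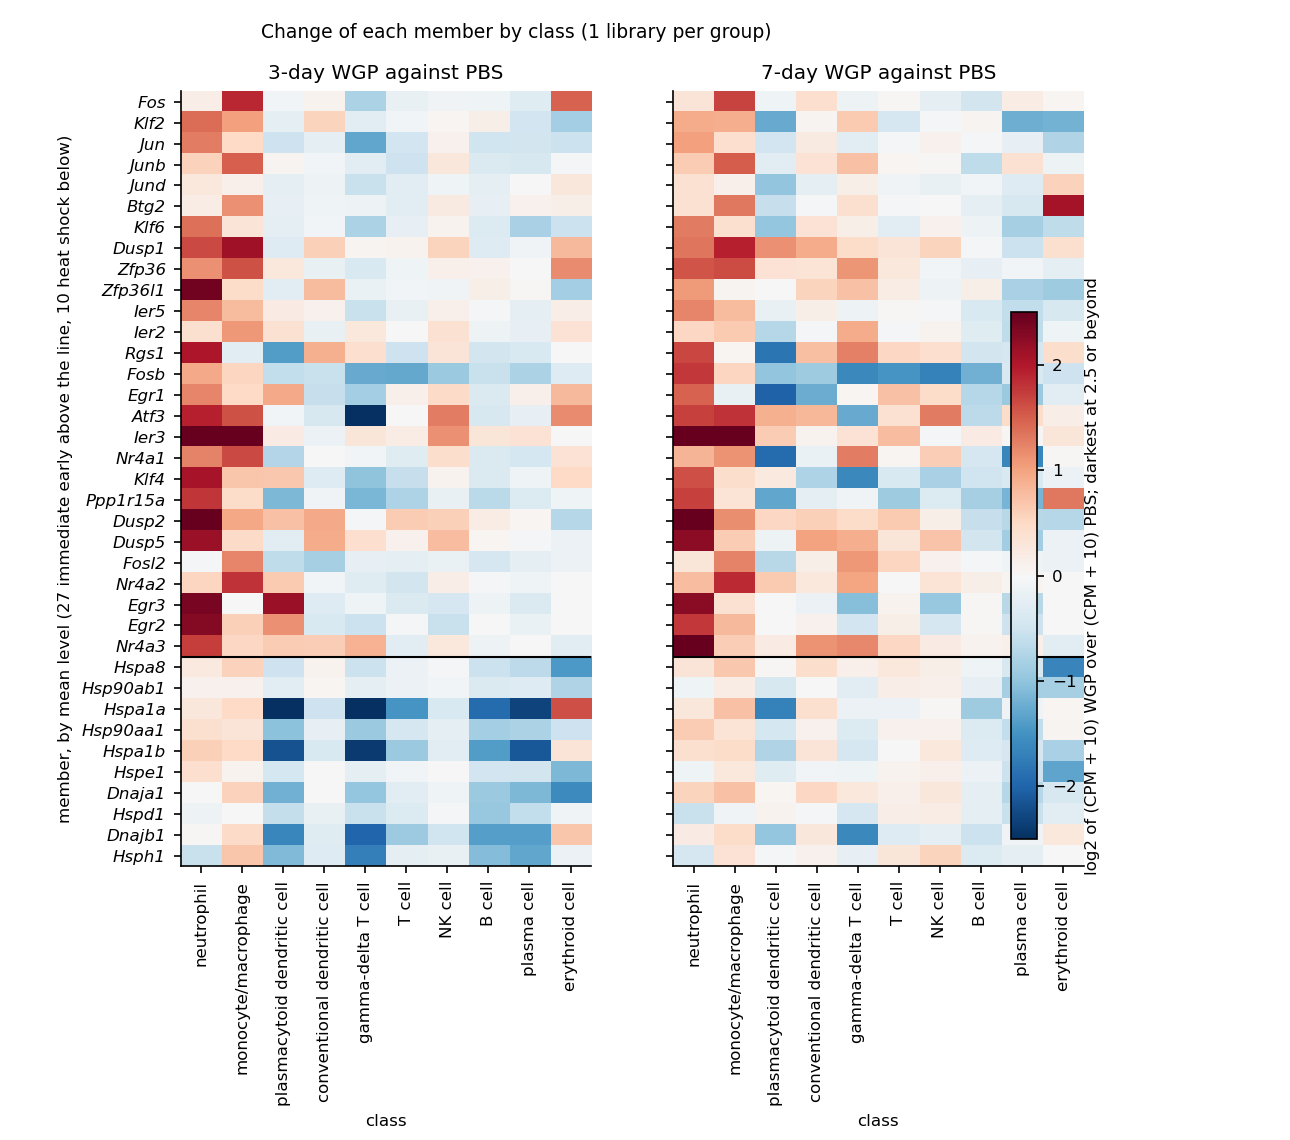
Log2 ratio of CPM plus 10 to that of PBS for each of the 37 members (rows, immediate early above the line and heat shock below) in 10 classes (columns), at 3 days (left) and 7 days (right), with red higher and blue lower than PBS. The neutrophil and monocyte/macrophage columns are red over most immediate early rows at both times, and the heat shock rows Hspa1a, Hspa1b, Dnajb1 and Hsph1 are blue in B, gamma-delta T, plasma and plasmacytoid dendritic cells at 3 days.

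Different clusters held the monocyte/macrophage class in the 3 libraries, so the sum was also taken cluster by cluster. In PBS most of the class lay in cluster 12 (428 cells, led by Ms4a7, Fcrls and C1qa) and cluster 18 (211 cells, led by Folr2 and Mrc1), at 3 days in cluster 3 (183 cells, led by Chil3 and Ccr2), and at 7 days in cluster 7 (582 cells, led by Cxcl9 and Ly6i) and cluster 3 (518 cells). Within cluster 3 the immediate early sum was 8729.5, 17067 and 15440.4 CPM, and the log2 ratios to PBS were 0.97 (0.93 to 1.003) and 0.82 (0.79 to 0.86). There 9 of the 27 members were called higher and 0 lower at 3 days (1.44% and 1.21% of genes), and 6 higher and 0 lower at 7 days (1.77% and 1.13%), a choice of cells made after seeing the data. Atf3, Ier3 and Dusp1 were called at both times in cluster 3 as in the class, and Fos, Nr4a1 and Nr4a2 at 3 days alone. Junb, Fosl2, Zfp36 and Btg2, called in the class, were not called in cluster 3 at either time, with Zfp36 at 681, 1365 and 1153 CPM and Btg2 at 638, 1123 and 1033 CPM. Zfp36l1, not called in the class, was called higher in cluster 3 at both times (164, 398 and 386 CPM), and Rgs1 at 7 days (61.0, 75.8 and 186 CPM). Within cluster 12 the sum was 6596 and 14836 CPM in PBS and 3-day WGP, a log2 ratio of 1.17 (1.13 to 1.21). Within cluster 18 it was 5687 and 9197 CPM, a log2 ratio of 0.69 (0.64 to 0.75). The higher sum was thus seen inside clusters as well as across the class, at a smaller size in cluster 18 and, at 7 days, in cluster 22 (11609 and 13571 CPM, log2 ratio 0.23 (0.18 to 0.27)). These cluster values pool cells with Xist and cells with Y chromosome transcripts. In cluster 12, 397 PBS cells held Xist and 21 3-day cells held Y transcripts, and in cluster 3 these numbers were 63 and 115. The part of this mix in the cluster ratios was not tested.

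**Figure D3:**
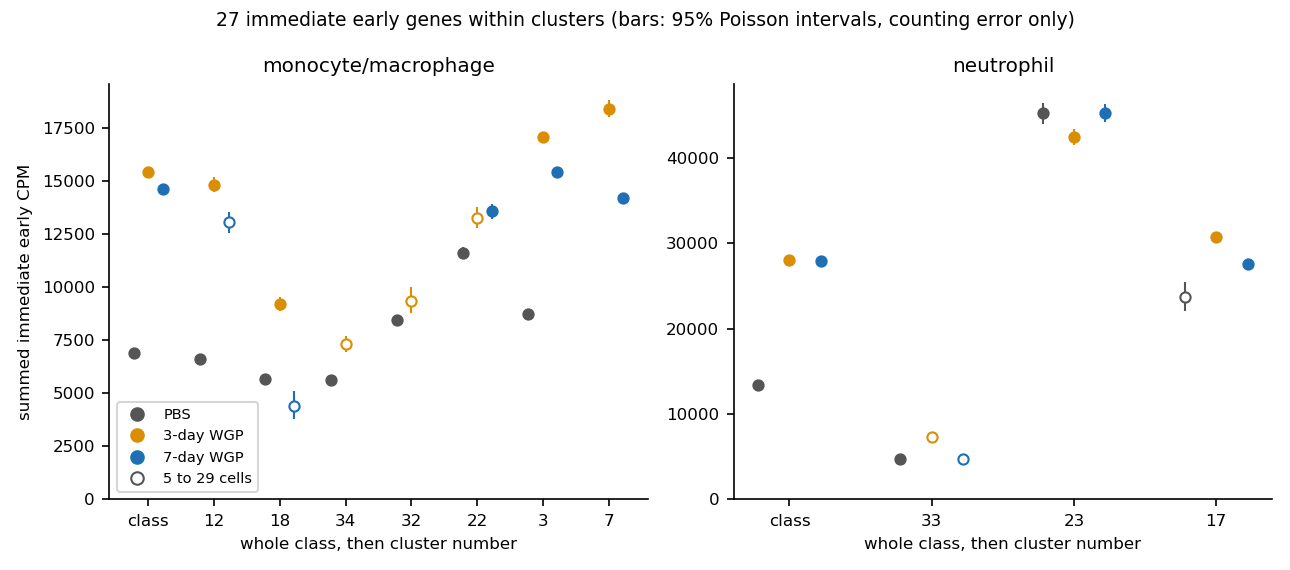
Summed immediate early CPM in the whole class and in its clusters for monocytes/macrophages (left) and neutrophils (right), by library, with 95% Poisson intervals and open points for 5 to 29 cells. In monocyte/macrophage cluster 3 the PBS point (8729.5 CPM) lies under both WGP points, whereas in neutrophil cluster 23 the 3 points lie between 42429.9 and 45256 CPM.

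The neutrophil class gave another picture. Its immediate early sum of 13333, 28025 and 27943 CPM was 2.10-fold that of PBS at both times, and 19 members at 3 days and 18 at 7 days were called higher with 0 lower. In this class, however, 13.2% and 12.5% of all genes tested were called higher, and 4.33% and 4.03% lower. Within cluster 23, led by Retnlg, Cxcr2 and G0s2, the sum was 45236, 42429.9 and 45256 CPM, and the log2 ratios to PBS were -0.092 (-0.14 to -0.041) and 0.00064 (-0.052 to 0.053). The 2-fold difference of the class was therefore not present in the cluster that all 3 libraries filled, with 43, 60 and 72 cells.

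The makeup of the neutrophil class differed between the libraries. Cluster 33, led by Ngp, Camp and Ltf, granule genes of immature neutrophils, held 37 of the 87 PBS cells and carried 4756 CPM. Cluster 17, led by Cxcl2, Ccl3 and Tnf, held 7 PBS, 163 3-day and 113 7-day cells and carried 23719.6, 30709 and 27553 CPM. With each cell thinned to 1000 UMIs, the median neutrophil held 28, 33 and 34 immediate early UMIs. Across the class Dusp1 stood at 1672, 5246 and 4240.3 CPM, Zfp36 at 1106, 2457 and 3327 CPM and Ier3 at 168, 1044 and 1699 CPM. Junb stood at 1983, 2956 and 3097 CPM, Klf2 at 1109, 2933 and 2118 CPM and Egr1 at 469.8, 1107 and 1324 CPM. Fos, by contrast, stood at 1769, 1995 and 2227 CPM and was not called, in a class where 19 members were at 3 days. The part of the different cluster makeup in these class values was not tested.

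In B, T and NK cells the immediate early sum differed little from PBS, with log2 ratios from -0.25 (T cells, 3 days) to 0.15 (NK cells, 3 days). In B cells 0 members were called at 3 days (0.0145% of genes higher and 0.102% lower) and 1, Fosb, was lower at 7 days (0.189% of genes higher and 0.0435% lower). Fosb, an AP-1 subunit related to Fos, stood at 169, 111 and 67.9 CPM in B cells, 162, 61.0 and 51.5 CPM in T cells, 273, 139 and 77.2 CPM in NK cells and 266, 105 and 80.4 CPM in gamma-delta T cells. It was lower than PBS at both times in all 4 classes and was called lower at both times in T and gamma-delta T cells. Fos in the same cells stood at 323, 299.9 and 232 CPM in B cells, 239.6, 210.0 and 245 CPM in T cells and 344, 322 and 294 CPM in NK cells, and was not called.

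Gamma-delta T cells had a lower immediate early sum than PBS at 3 days and a higher one at 7 days. Their sum was 8852, 6634 and 11925 CPM, and the log2 ratios to PBS were -0.42 (-0.46 to -0.37) and 0.43 (0.37 to 0.49). At 3 days 0 members were called higher and 5 lower (background 0.345% and 0.69%), and at 7 days, on 64 cells, 5 were higher and 4 lower (background 2.32% and 2.67%). Junb stood at 1407, 1158 and 2343 CPM, Rgs1 at 470.0, 629 and 1146 CPM and Jun at 954, 380.4 and 778 CPM. Atf3 was called lower at both times, at 215, 13.4 and 83.3 CPM. This was the opposite of its direction in monocytes/macrophages, neutrophils and NK cells, in which it was called higher at both times. The NK values (4.84, 25.8 and 26.7 CPM) rest on 5, 68 and 106 UMIs, so that call hangs on a low PBS count.

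Dendritic cells and plasma cells completed the range. Conventional dendritic cells held 7652, 7856 and 8907 CPM, with 0 members called at 3 days (0.732% of genes higher, 0.447% lower) and 2 higher and 1 lower at 7 days (2.22% and 0.881%). Plasmacytoid dendritic cells, with 45 to 78 cells, held 9958, 8332 and 6764 CPM and plasma cells 5808, 4840.4 and 4591 CPM, in both cases lower at each WGP time. In plasmacytoid dendritic cells Klf2 stood at 1325, 1114 and 544 CPM and Rgs1 at 711, 263 and 194 CPM, while Dusp1 stood at 101, 78.0 and 233 CPM. Dusp1 was called higher at 7 days, but without the highest doublet scores its log2 ratio turned to -1.34. The immediate early members called lower at both times outside the T cell classes were Rgs1 and Ppp1r15a, a phosphatase subunit that reverses the block of translation in stressed cells, both in plasmacytoid dendritic cells (129, 53.7 and 46.6 CPM for Ppp1r15a). In plasma cells the median log2 ratio of all genes was itself -0.41 at 7 days, close to the -0.42 of the immediate early members.

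In the remaining classes of the 10 compared, few immediate early members were called. In NK cells 2 were higher and 0 lower at 3 days (background 0.262% and 0.275%), and 1 was higher and 1 lower at 7 days (0.826% and 0.328%). In T cells 0 were higher and 1, Fosb, was lower at each time (background 0.124% and 0.083% at 3 days, 1.08% and 0.124% at 7 days). In plasma cells 0 were called at 3 days (0.159% of genes higher, 0.419% lower), and 0 were higher and 3 lower at 7 days (0.598% and 3.41%). In plasmacytoid dendritic cells 2 were higher and 2 lower at 3 days (2.14% and 2.26%), and 1 was higher and 5 lower at 7 days (4.36% and 2.72%). In erythroid cells, where 4 of the 27 reached a mean of 10 CPM, 3 were higher and 0 lower at 3 days (3.11% and 3.31%), and 2 were higher and 1 lower at 7 days (28.6% and 2.48%). Apart from plasmacytoid dendritic cells at 7 days, these counts were at most 3 of 27 in a direction. Fibroblasts, outside the 10 classes, had 35 cells in PBS and 44 at 3 days. Fos (782 and 1620 CPM), Fosb (273 and 757 CPM), Junb (459 and 1035 CPM), Ier2, Ier3, Zfp36 and Btg2 were called higher there at 3 days. No immediate early member was called lower in them, and no share of all genes called is given for this class. Among these fibroblasts 28 in PBS held Xist and 26 at 3 days held Y chromosome transcripts.

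The least abundant members add to this range. Nr4a3 (7.63, 9.07 and 18.4 CPM over all kept cells), Egr2 (13.5, 19.8 and 23.7 CPM) and Egr3 (26.4, 19.3 and 18.4 CPM) had the lowest mean levels of the 27. In monocytes/macrophages Nr4a3 stood at 1.58, 6.69 and 7.74 CPM, too low to be called. In conventional dendritic cells Nr4a3 stood at 23.5, 41.3 and 62.6 CPM and Dusp5, a nuclear phosphatase of ERK, at 52.6, 109 and 116 CPM, and these were the 2 members called higher at 7 days, while Egr1 at 179, 117 and 70.3 CPM was the 1 called lower. Klf4, a factor of myeloid and epithelial cells, stood at 64.2, 26.9 and 14.4 CPM in gamma-delta T cells and was called lower at both times.

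Promoters of the members were searched for elements through which such genes are classically induced, in windows from 250 bases before to 50 bases after each RefSeq start (GRCm38.p6), which were found for 23 of the 27 immediate early and 7 of the 10 heat shock genes. The heat shock element was searched as GAANNTTC or TTCNNGAA, the cyclic AMP response element as TGACGTCA, the AP-1 element as TGAGTCA or TGACTCA, and the serum response element by its CArG box, all on both strands. The cyclic AMP response element was found in 3 immediate early genes (Dusp1, Btg2 and Ppp1r15a) and in 2.03% of the 27025 genes with a window (1.79% of all 32851 windows, since a gene can have several). The CArG box was found in 3 (Egr2, Dusp5 and Zfp36) and in 1.81% of genes (1.63% of windows), and the AP-1 element in 0 of 23 and in 5.95% of genes (5.20% of windows). The windows of Dusp1 (chr17:26508423-26508722, minus strand) and Zfp36 (chr7:28379179-28379478, minus strand) are shown, since both genes were called higher in monocytes/macrophages at both times, with the cyclic AMP response element of the first and the CArG box of the second in capitals.
Dusp1: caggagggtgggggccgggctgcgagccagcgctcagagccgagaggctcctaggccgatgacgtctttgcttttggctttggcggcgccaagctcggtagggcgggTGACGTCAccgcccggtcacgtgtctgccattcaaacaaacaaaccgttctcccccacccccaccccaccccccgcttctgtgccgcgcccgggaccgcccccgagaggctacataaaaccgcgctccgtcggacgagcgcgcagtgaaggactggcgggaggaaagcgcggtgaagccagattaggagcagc
Zfp36: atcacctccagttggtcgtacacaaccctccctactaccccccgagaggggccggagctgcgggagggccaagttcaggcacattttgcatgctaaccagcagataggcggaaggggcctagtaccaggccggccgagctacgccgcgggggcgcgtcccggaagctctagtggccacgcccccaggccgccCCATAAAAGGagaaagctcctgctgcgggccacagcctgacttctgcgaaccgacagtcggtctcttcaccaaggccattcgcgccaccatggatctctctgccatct
The matches describe these windows, and binding to them was not measured.

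Heat shock genes gave a pattern that differed from that of the immediate early genes. Their sum was lower at 3 days than in PBS in 8 of 10 classes, with a median log2 ratio of -0.44, and its median ratio at 7 days was -0.010. Of 100 pairs of a member and a class, 23 were called lower and 1 higher at 3 days, beside pooled backgrounds of 1.18% and 2.03%. At 7 days 4 were lower and 0 higher, beside 2.2% and 3.29%. The 3-day median moved to -0.21 where the cells with the highest doublet scores were removed. Among the 10 classes monocytes/macrophages and neutrophils were the exceptions, with 5127, 6855 and 7284 CPM and 1916, 2233 and 2318 CPM. In neutrophils the median heat shock member had log2 ratios of 0.18 and 0.24, where the median over all genes was 0.27 and 0.17. The 3-day ratio of their sum ran from -0.096 to 0.73 over the alternatives run. Fibroblasts, outside the 10 classes, had 35 cells in PBS and 44 at 3 days. There Hspa1a (219 and 569 CPM), Hspa1b (217 and 452 CPM) and Dnajb1 (90.3 and 251 CPM) were called higher at 3 days, and no heat shock member lower. For fibroblasts no share of all genes called is given beside these calls. Of these cells 28 in PBS held Xist and 26 at 3 days held Y chromosome transcripts.

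The lower values at 3 days were found in B cells, gamma-delta T cells, plasma cells, plasmacytoid dendritic cells and ILC2. In B cells the sum was 8589 CPM (8532 to 8646) in PBS, 5079 CPM (5009 to 5150.2) at 3 days and 7075 CPM (6979 to 7171) at 7 days, with log2 ratios of -0.76 (-0.78 to -0.74) and -0.28 (-0.30 to -0.26). At 3 days 4 of the 10 members were called lower in B cells, where 0.102% of genes were. In gamma-delta T cells the sum was 9034, 5028 and 8112 CPM, and 4 members were lower at 3 days (background 0.69%). In plasma cells it was 3856, 2194 and 2680.4 CPM, with 5 members lower (background 0.419%), and in plasmacytoid dendritic cells 8262, 4652 and 6290.0 CPM, with 6 lower (background 2.26%). ILC2 held 9251 and 4837 CPM in PBS and 3-day WGP, a log2 ratio of -0.94 (-0.99 to -0.88). T cells (6792, 5481 and 7458 CPM) and NK cells (6849, 6379 and 7595 CPM) differed less, with 1 and 0 members lower (background 0.083% and 0.275%). Erythroid cells, with 178, 119.8 and 85.3 CPM, held the remaining 3 lower values, of Hspa8, Dnaja1 and Hspe1, and the 1 higher value, of Hspa1a (4.25, 33.8 and 4.74 CPM), at 3 days.

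Hspa1a and Hspa1b, the stress-inducible HSP70 genes, carried the largest differences. Hspa1a stood at 912, 233 and 487 CPM in B cells, 969.8, 140.2 and 879 CPM in gamma-delta T cells, 364, 65.3 and 342 CPM in plasma cells and 899.9, 129.9 and 272 CPM in plasmacytoid dendritic cells. Its log2 ratio at 3 days was -1.97 (-2.07 to -1.87), -2.79 (-3.01 to -2.57), -2.48 (-2.58 to -2.38) and -2.79 (-3.18 to -2.42) in these classes, and it was called lower in all 4. Hspa1b stood at 842, 314 and 672 CPM in B cells, 1164, 213 and 870.0 CPM in gamma-delta T cells, 309.9, 63.6 and 228 CPM in plasma cells and 972, 206 and 569.9 CPM in plasmacytoid dendritic cells, and was called lower at 3 days in these 4 classes as well. In T cells Hspa1a stood at 452, 157 and 407 CPM and was called lower at 3 days. In monocytes/macrophages, by contrast, Hspa1a stood at 561, 800.3 and 938 CPM and Hspa1b at 527, 752 and 732 CPM, and neither was called.

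The paralogs are near copies, and reads can be split between them. Hspa1a (GRCm38 chromosome 17, 34969190 to 34972156, minus strand) and Hspa1b (chromosome 17, 34956436 to 34959238, minus strand) share 52.0% of their windows of 91 transcript bases, but 0 of 310 such windows in the last 400 bases, which 3′ libraries mostly read. Reads outside the last 400 bases could fall to either copy, and to that extent the values of Hspa1a and Hspa1b are uncertain. Their promoter windows (chr17:34972107-34972406 and chr17:34959189-34959488, minus strand) differ at 4 of 300 bases and hold the same heat shock element, in capitals, 104 bases before the start.
Hspa1a: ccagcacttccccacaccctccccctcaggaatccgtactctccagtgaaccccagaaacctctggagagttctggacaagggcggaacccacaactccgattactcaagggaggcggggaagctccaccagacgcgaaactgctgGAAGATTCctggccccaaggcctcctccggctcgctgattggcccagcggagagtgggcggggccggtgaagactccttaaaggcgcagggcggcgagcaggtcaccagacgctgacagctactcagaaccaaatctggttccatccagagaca
Hspa1b: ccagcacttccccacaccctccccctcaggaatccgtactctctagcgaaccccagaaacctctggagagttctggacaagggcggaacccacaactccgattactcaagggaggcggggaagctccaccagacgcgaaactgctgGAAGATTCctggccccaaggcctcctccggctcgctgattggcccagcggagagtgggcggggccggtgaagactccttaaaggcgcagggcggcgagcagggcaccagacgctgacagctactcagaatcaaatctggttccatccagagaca
The heat shock element was found in 6 of the 7 heat shock genes with a window (Hspa1a, Hspa1b, Hsph1, Dnaja1, Hspd1 and Hspe1), in 3 of 23 immediate early genes (Fosl2, Jun and Egr2) and in 16.97% of all genes (15.1% of windows). Hspd1 and Hspe1 share 1 promoter on opposite strands and so count the same matches.

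Hsph1, an HSP110 exchange factor that works with HSP70, and Dnajb1, an HSP40 that delivers substrates to it, were lower in the same classes as Hspa1a and Hspa1b. Dnajb1 stood at 237, 85.0 and 161 CPM in B cells, 302, 68.9 and 91.9 CPM in gamma-delta T cells and 195, 69.1 and 182 CPM in plasma cells. Hsph1 stood at 128, 55.0 and 99.5 CPM in B cells, 154, 39.7 and 132 CPM in gamma-delta T cells and 59.6, 18.1 and 48.6 CPM in plasma cells. Both were called lower at 3 days in B, gamma-delta T, plasma and plasmacytoid dendritic cells. Hspe1, the small subunit of the mitochondrial chaperonin, stood at 662, 471 and 597 CPM in B cells, 478, 408 and 445 CPM in gamma-delta T cells and 265, 189 and 179 CPM in plasma cells, and was not called in them. The windows of Hsph1 (chr5:149636266-149636565, minus strand) and Hspe1 (chr1:55087898-55088197, plus strand) each hold 3 heat shock elements, shown in capitals, some of which overlap. In Hsph1, 1 of the 3 lies before the start and 2 after it.
Hsph1: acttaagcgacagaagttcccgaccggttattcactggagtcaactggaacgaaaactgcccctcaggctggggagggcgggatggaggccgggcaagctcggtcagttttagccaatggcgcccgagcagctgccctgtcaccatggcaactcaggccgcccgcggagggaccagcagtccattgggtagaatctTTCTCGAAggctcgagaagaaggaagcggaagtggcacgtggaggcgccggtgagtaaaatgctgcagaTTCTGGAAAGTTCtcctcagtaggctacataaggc
Hspe1: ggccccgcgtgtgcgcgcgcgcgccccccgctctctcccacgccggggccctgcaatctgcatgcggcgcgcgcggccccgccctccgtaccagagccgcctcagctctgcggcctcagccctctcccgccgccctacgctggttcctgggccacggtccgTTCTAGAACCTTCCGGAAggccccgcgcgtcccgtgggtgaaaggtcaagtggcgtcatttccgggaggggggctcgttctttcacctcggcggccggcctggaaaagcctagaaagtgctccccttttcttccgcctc
Both windows are shown because they hold the most elements of the 6 printed, while Hsph1 was called lower in 4 classes at 3 days and Hspe1 in 1, the erythroid cells.

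The sum of Hspa1a, Hspa1b, Dnajb1 and Hsph1 was set beside that of the other 6 heat shock members. The 4 genes were chosen after their values had been seen, and the sum is a description. In B cells it was 2119.9, 687 and 1419.7 CPM, beside 6469, 4392 and 5655 CPM for the other 6. In gamma-delta T cells it was 2589.8, 462 and 1973 CPM beside 6444, 4565 and 6139 CPM. In plasma cells it was 928, 216 and 799.6 CPM beside 2927, 1977 and 1881 CPM, and in ILC2 2561 and 529.6 CPM in PBS and 3-day WGP beside 6690.0 and 4307 CPM. The other 6 include Hspa8, the constitutive HSP70 (1781, 1221 and 1650.2 CPM in B cells), and Hsp90ab1, the constitutive HSP90 (2312, 1792 and 2005 CPM). Dnaja1, another HSP40, and Hsp90aa1, the inducible HSP90, stood at 526, 272 and 446 CPM and 907, 496 and 717 CPM in B cells. Hspd1, the large subunit of the mitochondrial chaperonin, stood at 280.3, 140.0 and 240.0 CPM in B cells, 229, 178 and 259 CPM in T cells and 103, 103 and 95.5 CPM in monocytes/macrophages and, like Hsp90ab1, was called in 0 of the 10 classes at either time.

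**Figure D4:**
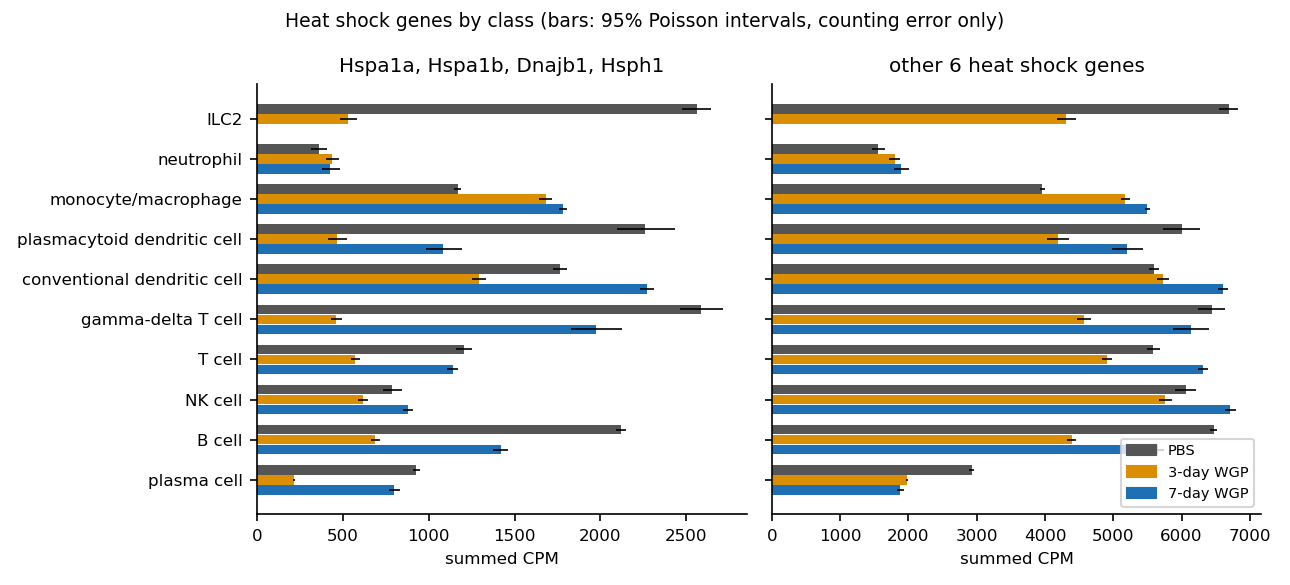
Summed CPM of Hspa1a, Hspa1b, Dnajb1 and Hsph1 (left) and of the other 6 heat shock genes (right) by class and library, with bars starting at 0 and 95% Poisson intervals. The 3-day bar of the 4 genes is shorter than the PBS bar in ILC2, plasmacytoid and conventional dendritic, gamma-delta T, T, NK, B and plasma cells, from 216 CPM in plasma cells to 1293 CPM in conventional dendritic cells, and longer than it in monocytes/macrophages and neutrophils.

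The lower value at 3 days was also present within clusters of B, plasma and T cells. The heat shock log2 ratio at 3 days was -0.95 (-0.99 to -0.91) in B cell cluster 0, -0.56 (-0.59 to -0.53) in B cell cluster 1, -0.92 (-0.98 to -0.87) in B cell cluster 14 and -0.89 (-0.91 to -0.86) in plasma cell cluster 4. Cluster 15, which stayed unnamed although B cell genes such as Fcer2a led it, gave -1.12 (-1.17 to -1.07). In T cell clusters 6, 10 and 11 it was -0.22 (-0.27 to -0.17), -0.38 (-0.44 to -0.33) and -0.24 (-0.29 to -0.18). All 8 ratios were below 0. Monocyte/macrophage clusters 12 and 18 went the other way for Hspa1a and Hspa1b. In PBS and 3-day WGP Hspa1a stood at 619 and 1219 CPM in cluster 12 and 484 and 797 CPM in cluster 18. Hspa1b stood at 548 and 1260 CPM and at 516 and 1007 CPM. These cluster values take together the Xist and Y cells described next.

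Cells were next divided by the sex-linked transcripts they held, Xist, the noncoding RNA of the inactive X chromosome, or any of the Y genes Ddx3y, Uty, Kdm5d and Eif2s3y. Cells that held neither were left out, among B cells 718 of 1839 in PBS, 325 of 766 at 3 days and 139 of 512 at 7 days. The split thus covers a part of each class. Xist and Y cells were both present in each library, and sex and animal cannot be told apart. In PBS the Y cells had higher immediate early and heat shock sums than the Xist cells in 7 of 7 classes with 20 or more cells of each kind. The median log2 ratio of Y to Xist cells was 0.71 for immediate early genes, 0.82 for heat shock genes and 1.75 for Hspa1a, Hspa1b, Dnajb1 and Hsph1.

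The size of this split can be seen in single classes of the PBS library. B cells held 581 CPM of Hspa1a, Hspa1b, Dnajb1 and Hsph1 in 303 Xist cells and 2855 CPM in 816 Y cells, a log2 ratio of 2.30 (2.23 to 2.37). T cells held 437 and 1844 CPM, gamma-delta T cells 522 and 3581 CPM, and ILC2 1119 and 3771 CPM. The immediate early sum of ILC2 was 14653 CPM in Xist cells and 25122 CPM in Y cells. In all 4 classes the Y cells of this 1 library held at least 3 times as much of the 4 genes as its Xist cells.

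Depth and mitochondrial share moved with the split in PBS. B cells had medians of 10349 UMIs per Xist cell and 4047 per Y cell, with 5.64% and 6.46% mitochondrial UMIs. Among PBS cells of 2000 to 6000 UMIs, a range that narrows the gap in depth, the log2 ratio of the 4 genes was 1.83 (1.66 to 2.01) in B cells, 1.48 (1.21 to 1.77) in T cells, 0.95 (0.53 to 1.38) in NK cells and 2.23 (1.95 to 2.51) in ILC2. Within B cell clusters 0 and 1 it was 1.95 (1.77 to 2.13) and 2.19 (2.10 to 2.28) at all depths. The level of Y cells in PBS was thus higher in this range and within these clusters as well. The other libraries did not share the order in every class. At 3 days the 4 genes were lower in Y than in Xist cells in 3 of 4 classes (median log2 ratio -0.66), and at 7 days higher in 5 of 6 (0.39).

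**Figure D5:**
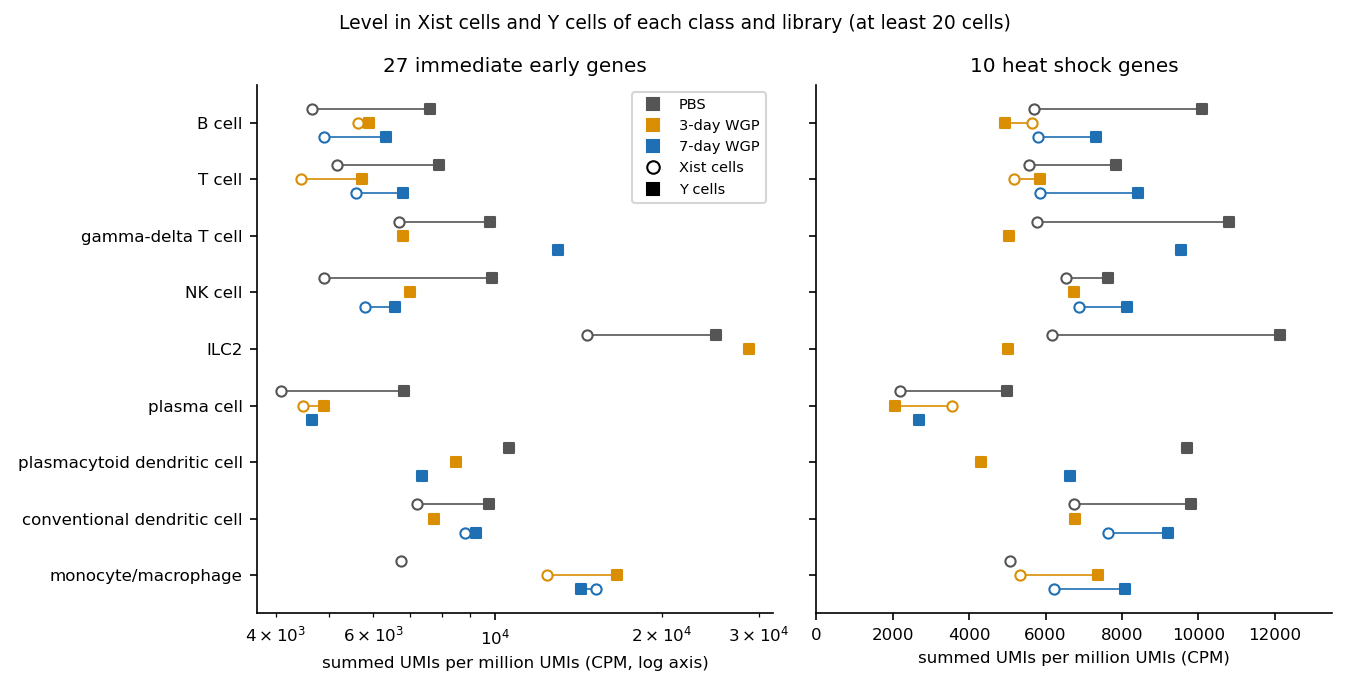
Summed CPM of the immediate early genes (left, log axis) and heat shock genes (right, from 0) in Xist cells (open circles) and Y cells (filled squares) of 9 classes, by library, where at least 20 cells were available. The PBS squares lie to the right of the PBS circles in each class that has both, and the 3-day heat shock squares lie to the left of the PBS squares in every class that has both.

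The lower heat shock level at 3 days was seen in Y cells. Within Y cells the 3-day sum was lower than PBS in 8 of 8 classes, with a median log2 ratio of -1.07, and the 4 genes were lower in 8 of 8 with a median of -2.57. Within Xist cells, which could be compared in 4 classes, the median for all 10 genes was 0.029, with 2 classes above 0 and 2 below, and the 4 genes were higher in 3 of 4 with a median of 0.43. B cells showed -0.012 (-0.058 to 0.033) in Xist cells and -1.03 (-1.06 to -0.9996) in Y cells. Plasma cells, with 25 Xist cells at 3 days, showed 0.70 (0.64 to 0.76) and -1.27 (-1.30 to -1.25). T cells showed -0.11 (-0.16 to -0.052) and -0.42 (-0.47 to -0.37). Whether the 2 kinds of cell differ in this was not tested, since each rests on 1 library per group.

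At 7 days the 4 genes were lower than PBS in Y cells of 7 of 7 classes, with a median log2 ratio of -0.60, and higher in Xist cells of 6 of 6, with a median of 0.55. Among Xist cells the smallest ratio was 0.20 (0.059 to 0.35) in B cells, and within B cell cluster 0 it was -0.70 (-1.03 to -0.38). The largest was that of neutrophils, which rested on 23 and 21 Xist cells.

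The monocyte/macrophage difference was measured almost wholly on Xist cells in PBS, where the class held 896 Xist and 11 Y cells. Within Xist cells its immediate early sum was 6736, 12405 and 15220.2 CPM, and the log2 ratios to PBS were 0.88 (0.85 to 0.91) and 1.18 (1.16 to 1.19). Its heat shock log2 ratios within Xist cells were 0.070 (0.026 to 0.11) and 0.29 (0.27 to 0.31). The immediate early genes of this class therefore differed by over 1.5 times in cells of 1 kind, and its heat shock genes by less.

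Free RNA held the same genes. Barcodes with at most 100 UMIs, which mostly hold RNA from the suspension, carried 5877, 8313 and 8491 CPM of immediate early and 4841, 4081 and 5336 CPM of heat shock RNA in PBS, 3-day and 7-day WGP. Dusp1 in these barcodes stood at 285, 836 and 835 CPM and Hspa1a at 752, 446 and 709 CPM, with PBS lowest for Dusp1 and 3-day WGP lowest for Hspa1a, as in the kept cells. Their part in the differences between classes was not tested.

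Other genes of the same programmes were counted from lists that do not overlap the members. These lists were chosen with earlier results of these data known, so their counts are a description. Of 28 other early response genes, 13 were called higher in monocytes/macrophages at 3 days and 13 at 7 days, with 0 lower, where 2.15% and 4.13% of all genes were called higher, among them Nfkbia and Tnfaip3, inhibitors of NF-κB, Cebpb and Socs3. In B cells 0 of the 28 were called at either time (background 0.0145% and 0.189% higher). Of 25 other heat shock and co-chaperone genes, 1, Hspb1, was lower at 3 days in each of B, plasma and plasmacytoid dendritic cells, and 1, Dnajb4, in gamma-delta T cells, where 0.102%, 0.419%, 2.26% and 0.69% of all genes were lower. Of 10 chaperones of the endoplasmic reticulum, 0 were called in B, T, NK, gamma-delta T or plasma cells at either time. In these classes 0.0145% to 3.41% of all genes were called in a direction, and a count of 0 of 10 lies near such shares. The median log2 ratio of the 25 genes at 3 days was -0.20 in B cells and -0.30 in gamma-delta T cells, where that of the 10 members was -0.94 and -0.95.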

How the data were processed

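The authors deposited 1 raw Cell Ranger 3.1.0 matrix of UMI counts per library, aligned to mm10 and with no normalization. Barcodes with at least 1000 UMIs and at most 30% mitochondrial UMIs were kept. Counts were clustered with scanpy 1.11.5 (3000 variable genes without the 37 members, 30 principal components, 20 neighbours, resolution 1.5), and clusters were named from marker lists with thresholds set after the clusters had been seen. The doublet caller marked 0, 3 and 5 cells and so had not worked, and doublets were left in. Counts were summed per class and library and divided by the class total (CPM), with exact Poisson intervals and exact conditional intervals for ratios. PCR duplicates were collapsed by UMI, and intervals cover counting error only. Total kept UMIs per library were 46240979, 51793608 and 41749724. A gene was called where CPM plus 10 differed at least 2-fold. The share of all genes called was taken over genes with a mean of at least 10 CPM in the class. Xist and Y cells were compared where 20 or more cells of each were available. The scripts were tested on simulated data. All 37 members were reported, with values by class for the 12 immediate early and 6 heat shock genes of highest mean CPM and for any member called the same way at both times in at least 3 classes (Atf3). Other members and cluster genes were singled out after their values had been seen. The members and lists were chosen with earlier results of these data known. Alternatives were edgeR 4.0.16 TMM factors, median of ratios size factors, thinned cells, removal of high doublet scores, other clusterings, a pseudocount of 1 and sums over cells.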

Additional observations from a re-analysis of the deposited data

Results flagged for a closer look

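In several classes the ratio to PBS had opposite signs in Xist cells and Y cells, and whether the 2 kinds of cell differ was not tested, because each group is 1 library. At 3 days the immediate early log2 ratio was 0.28 in Xist and -0.36 in Y cells of the B cell class, and 0.14 and -0.49 in plasma cells. The heat shock log2 ratio of plasma cells at 3 days was 0.70 in Xist and -1.27 in Y cells. At 7 days the immediate early log2 ratio was 0.073 in Xist and -0.26 in Y cells of the B cell class, 0.24 and -0.58 in NK cells, 0.11 and -0.22 in T cells, and 0.29 and -0.075 in conventional dendritic cells. The heat shock log2 ratio of conventional dendritic cells at 7 days was 0.18 in Xist and -0.092 in Y cells.

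Some sums in barcodes outside the kept cells were higher after WGP than in PBS. In barcodes with at most 100 UMIs the immediate early sum was 5877 CPM in PBS, 8313 CPM at 3 days and 8491 CPM at 7 days, and the heat shock sum was 4841 CPM in PBS, 4081 CPM at 3 days and 5336 CPM at 7 days. In barcodes over the mitochondrial limit the immediate early sum was 4416 CPM in PBS, 6022 CPM at 3 days and 4889 CPM at 7 days, whereas the heat shock sum was 3108, 2403 and 2618 CPM. In barcodes of 100 to 1000 UMIs the immediate early sum was 11032, 8582 and 10097 CPM and the heat shock sum 6359.6, 3271 and 4832 CPM.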

How the results depend on the processing

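No paired analysis was possible because each group is 1 library. Summed over classes, the median immediate early log2 ratio at 3 days was -0.095 with the members kept in the clustering, 0.035 as a mean of log2 values over members and -0.14 as a mean over cells. At 7 days it was 0.17 with TMM factors, 0.16 with median of ratios factors, 0.18 with each library clustered on its own, 0.034 in thinned cells, 0.041 as a mean of log2 values and 0.048 as a mean over cells. The heat shock median at 3 days was -0.21 without the highest doublet scores, -0.53 with libraries clustered apart, -0.66 in thinned cells, -0.40 as a mean of log2 values and -0.65 as a mean over cells. At 7 days it was 0.079 with TMM factors, 0.080 with median of ratios factors, -0.086 with libraries clustered apart, -0.11 in thinned cells, -0.12 as a mean of log2 values and -0.13 as a mean over cells. Immediate early values called lower numbered 17 at 3 days in thinned cells, and 23 at 3 days and 36 at 7 days with a pseudocount of 1. Heat shock values called higher at 3 days numbered 4 without the highest doublet scores, 4 with libraries clustered apart, 3 in thinned cells and 2 with a pseudocount of 1, and at 7 days 2, 4 and 2 under the first 3 of these. Heat shock values called lower at 7 days numbered 7 with TMM factors, 7 with median of ratios factors, 8 in thinned cells and 8 with a pseudocount of 1. No share of all genes called is given for these settings. The counts under them therefore cannot be set beside the backgrounds above, which belong to the main setting. Over members, the median percentage of cells in which a member was detected (1 UMI or more) was 54.2% in unthinned cells. Reversed values were -0.092 for the immediate early sum of neutrophils at 3 days within cluster 23 (chosen after seeing the data), -0.17 without the highest doublet scores and -0.0037 in thinned cells for Ier3 in NK cells at 3 days, 0.025 for Klf2 in erythroid cells at 7 days and -1.34 for Dusp1 in plasmacytoid dendritic cells at 7 days, the last 2 without the highest doublet scores. Except where a setting changes the cells or weights by construction, the cause was not tested. Over the alternatives run, the immediate early log2 ratio of monocytes/macrophages stayed between 0.96 and 1.26 at 3 days and between 0.92 and 1.34 at 7 days, and the 3-day heat shock ratio of B cells between -0.99 and -0.72. The immediate early ratio of neutrophils ran from 0.29 to 1.40 and from 0.36 to 1.41. Its sign was not kept in NK cells at either time, conventional and plasmacytoid dendritic cells at 3 days, or T, erythroid and plasma cells at 7 days (plasma cells -0.47 to 0.26). The heat shock sign was not kept in neutrophils (-0.096 to 0.73) and erythroid cells at 3 days, or T and plasma cells at 7 days.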

Other observations

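Cluster 5, which stayed unnamed and was led by Saa3, Arg1 and Marco, held 10, 429 and 313 cells in PBS, 3-day and 7-day WGP, and its immediate early sum was 4738, 10689 and 10318 CPM. Its PBS value rests on 10 cells. The monocyte/macrophage class, which does not include this cluster, held 953, 367 and 1212 cells.

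Levels over all classes were compared as log2(CPM + 10) averaged over the members of a set, at 35 points that are each a class in a library and that share libraries and depth. Pearson's r between the 2 sets over these points was 0.71, given as a description. The 10 other genes most like the immediate early average were Nfkbia, Ccnl1, Aldoa, Rab7, Susd6, Zfand5, Ptp4a1, Gng5, Kdm6b and Rela, with r from 0.95 to 0.92. The 10 most like the heat shock average were Cacybp, Hspa4, Cct4, Rpl36, Rpl27, Nsa2, Rpl37, Bclaf1, Rpl38 and Snrnp70, with r from 0.96 to 0.95.

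In neutrophils the nuclear RNAs Malat1 and Neat1 were both called higher at 3 days and at 7 days, with a median log2 ratio of 1.26 at each time. In this class 13.2% and 12.5% of all genes tested were called higher at these times. The median log2 ratio of all genes was 0.27 and 0.17, and a link of the 2 RNAs to the immediate early values was not tested.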
